A study of Neurospora crassa with 12 samples.

Results

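Transcript levels of a Neurospora crassa strain that lacks the histone methyltransferase gene dim-5 (Δdim-5) were set directly against those of a strain that lacks 1 heterochromatic region, LGIIK9het25 (ΔLGIIK9het25). The libraries were chosen by their titles, which gave 4 from Δdim-5 and 4 from ΔLGIIK9het25, 8 of the 12 libraries of the series, and all genes with a count entry were considered. The Δdim-5 strain is N3944, with the genotype label "mat x; Δdim-5::bar+". The ΔLGIIK9het25 strain is NKL2, labelled "mat A; ΔLGIIK9het25::hph". The remaining 4 libraries came from N150, a wild type of mating type A (WT), and they entered the statistical fit and are given for orientation. All 3 strains were grown alike, as mycelium shaken for 16 h at 32 °C in Vogel's medium with 1.5% sucrose, and polyadenylated RNA was sequenced in single reads. The mutants differ in the label of their mating type and in their selection marker as well as in the deletion, and each genotype is a single strain. These differences cannot be told apart from the effect of the deletions.

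Constitutive heterochromatin of Neurospora carries trimethylation of lysine 9 of histone H3 (H3K9me3), which DIM-5 lays down within a complex with DIM-7, DIM-8, DIM-9 and CUL4. Heterochromatin protein 1, the product of hpo, binds the mark and brings in the DNA methyltransferase DIM-2, and deacetylases act on the same chromatin. Deleting dim-5 removes the methyltransferase everywhere in the genome, whereas deleting a heterochromatic region removes 1 stretch of marked DNA and leaves the enzymes in place. The comparison between the mutants therefore sets a genome-wide loss of the enzyme against the loss of a single region.

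The deposited tables list 9730 genes, and 8496 had enough counts to be tested. Between 10920478 and 23925695 reads fell in genes in the Δdim-5 libraries, against 8518301 to 16039760 in the ΔLGIIK9het25 libraries. Of 7 library measures, 1 did not overlap between the mutants, the share of reads in the 20 genes with the most counts. That share was 13.7% ± 0.726 in Δdim-5 and 12.5% ± 0.285 in ΔLGIIK9het25 (SD, n = 4 each), with a two-sided exact permutation p of 0.0286, the smallest that 4 libraries against 4 allow, and 0.2 after adjustment over the 7 measures. The share of reads outside genes was 3.62% to 7.29% in Δdim-5 and 5.17% to 31.8% in ΔLGIIK9het25, where replicate 2 had the highest share. The first principal component of the 8 libraries held 53.7% of their variance and separated the mutants. Nothing in the labels says that the libraries came from separate cultures, so p-values measure only the spread between these libraries, which may be technical. In bulk RNA, fewer cells of a type and less RNA per cell cannot be told apart.

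Differences were spread over both directions and were often large. Levels are given in CPM, a gene's reads relative to the scaled total of its library, and a call means an adjusted p under 0.05 in edgeR's quasi-likelihood test with Benjamini-Hochberg adjustment. Of the 8496 genes, 1423 were called (16.7%), with 750 higher (8.83%) and 673 lower (7.92%) in Δdim-5. The median log2 fold change was 1.31 among the higher calls and -1.24 among the lower calls, against 0.02 over all genes tested. The libraries did not overlap for 1805 genes (21.2%), with all Δdim-5 libraries above all ΔLGIIK9het25 libraries in 894 (10.5%) and below them in 911 (10.7%).

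The largest differences leaned towards the lower side. At least 8-fold differences were found for 66 higher and 91 lower genes, 4-fold to 8-fold differences for 110 higher and 106 lower, 2-fold to 4-fold differences for 317 higher and 218 lower, and smaller ones for 257 higher and 258 lower. Of the higher calls, 92 (12.3%) had a mean under 1 CPM in ΔLGIIK9het25, beside 4.39% of all genes tested. Of the lower calls, 78 (11.6%) had a mean under 1 CPM in Δdim-5, beside 3.05% of all genes tested. These numbers are a description, since a call in a direction favours genes that are low in the strain on the lower side. Scaling by library totals alone gave 586 higher and 788 lower calls, so that 42.6% of the calls were higher, against 52.7% with the main scaling. Leaving out ΔLGIIK9het25 replicate 4 reduced the calls to 939, and the higher calls numbered 439 without that library and 455 without ΔLGIIK9het25 replicate 3.

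**Figure D1:**
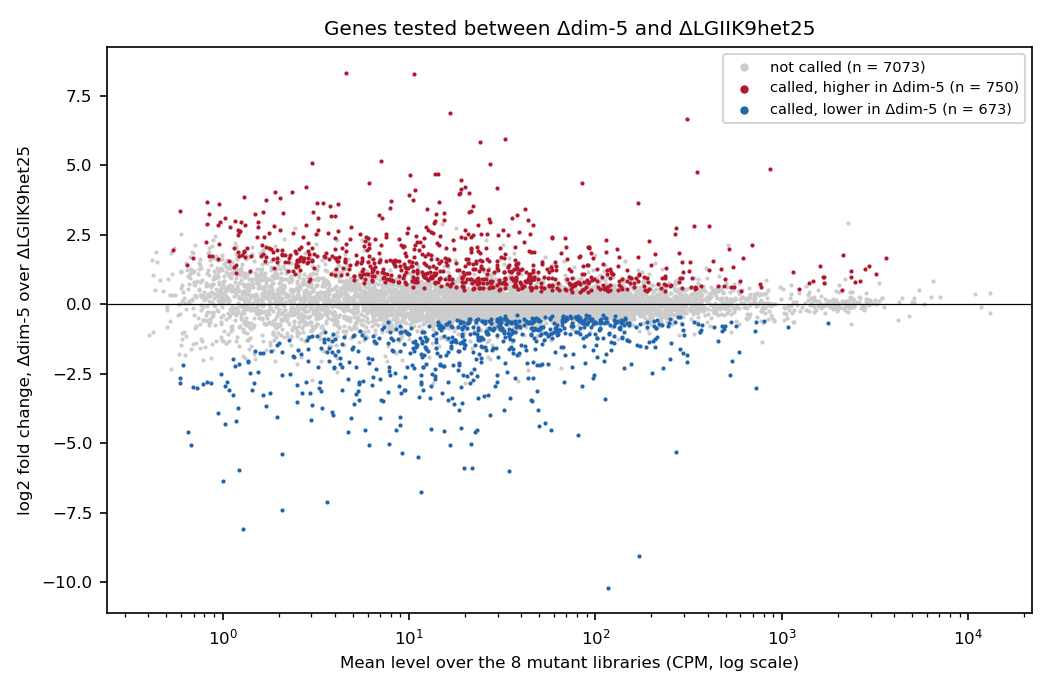
Each point is 1 of the 8496 tested genes, placed by its mean level over the 8 mutant libraries (CPM, log axis) and its log2 fold change of Δdim-5 over ΔLGIIK9het25. The 750 genes called higher are red, the 673 called lower are blue and the others grey, and the points farthest from the line at 0 lie on the lower side.

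The deleted gene was checked first. The counts of dim-5 (NCU04402) came to 3 reads over the 4 Δdim-5 libraries, against 362 over the 4 ΔLGIIK9het25 libraries and 297 over WT. In CPM, dim-5 stood at 0, 0, 0.053 and 0.0808 in Δdim-5, against 8.38, 7.83, 6.37 and 6.24 in ΔLGIIK9het25. The groups lie far apart, and the transcript was close to absent in the strain labelled as its deletion. The pooled ratio of ΔLGIIK9het25 over Δdim-5 was 159 (95% counting interval 53.9 to 773), and the fitted log2 fold change was -7.09 (SE 0.441, edgeR adjusted p = 3.42e-07). The other genes of the complex were not called, with log2 fold changes of -0.37 for dim-7, -0.05 for dim-8, 0.31 for dim-9 and -0.20 for cul-4.

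The 12 largest rises were all in genes without a symbol in RefSeq, where 1118 of the 9730 listed genes have one. Some were nearly silent in ΔLGIIK9het25 and others were not, and ranking by fold change favours genes that are low there. NCU07152 had 15.4, 27.2, 23.3 and 18.6 CPM in Δdim-5, against 0.0806, 0.11, 0.0612 and 0 CPM in ΔLGIIK9het25. Behind these levels stood 1425 reads in Δdim-5 and 3 reads in ΔLGIIK9het25, a pooled ratio of 361 (95% counting interval 123 to 1753). NCU06476 had 30.1, 50.8, 24.7 and 26.8 CPM in Δdim-5, against 0.161, 0.331, 0.49 and 0.0752 CPM in ΔLGIIK9het25. Every Δdim-5 library was far above every ΔLGIIK9het25 library in both genes, with log2 fold changes of 8.27 (SE 0.517, edgeR adjusted p = 3.42e-07) and 6.89 (SE 0.493, edgeR adjusted p = 9.31e-07).

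Abundant transcripts were among these rises too. NCU09635 had 578, 1267, 462 and 147 CPM in Δdim-5, against 4.51, 14.2, 4.22 and 1.96 CPM in ΔLGIIK9het25. NCU04046 had 931, 664, 659 and 460 CPM in Δdim-5, against 32.6, 33.1, 15.6 and 18.6 CPM in ΔLGIIK9het25. Replicate 4 was the lowest Δdim-5 library in both genes, and the groups stayed apart. Their log2 fold changes were 6.65 (SE 0.736, edgeR adjusted p = 4.75e-05) for NCU09635 and 4.77 (SE 0.344, edgeR adjusted p = 9.91e-07) for NCU04046. The steadiest of the 12 was NCU10245, with 61.5, 59.5, 48.1 and 43.2 CPM in Δdim-5, against 1.93, 1.88, 1.35 and 1.28 CPM in ΔLGIIK9het25. Its log2 fold change was 5.05 (SE 0.241, edgeR adjusted p = 2.52e-08).

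The least steady was NCU10040, with 1839, 2115, 2590 and 181 CPM in Δdim-5, against 68.2, 114, 26.9 and 22.3 CPM in ΔLGIIK9het25. Replicate 4 of Δdim-5 was far below its 3 fellows, and the WT libraries ran from 22.8 to 520 CPM and overlapped both mutants. The log2 fold change of NCU10040 was 4.87 (SE 1.02, edgeR adjusted p = 0.00575). The 6 other genes of this group, NCU10285, NCU07150, NCU09660, NCU09956, NCU05105 and NCU05097, had log2 fold changes of 4.66 to 5.93. For 10 of the 12, the range of the WT libraries met that of ΔLGIIK9het25 and not that of Δdim-5. In NCU10245 it met neither, since WT stood at 2.3 to 3.66 CPM. The same count was not made over all genes tested, so it cannot be called particular to these 12.

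The 12 largest falls went further than the rises. NCU08696 had 0, 0.22, 0.212 and 0.243 CPM in Δdim-5, against 330, 301, 163 and 136 CPM in ΔLGIIK9het25. NCU04907 had 1, 0.808, 0.265 and 0.606 CPM in Δdim-5, against 265, 321, 368 and 410 CPM in ΔLGIIK9het25. The groups were widely separated in both, with log2 fold changes of -10.19 (SE 0.459, edgeR adjusted p = 2.33e-08) for NCU08696 and -9.06 (SE 0.375, edgeR adjusted p = 1.17e-08) for NCU04907. The WT libraries placed these genes differently. They averaged 484 ± 125 CPM for NCU04907 (SD, n = 4), near the level of ΔLGIIK9het25. For NCU08696 they averaged 16.4 ± 2.2 CPM, between the mutants and apart from both.

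NCU10058 was the most abundant of these falls in Δdim-5, with 11.6, 11.2, 13.9 and 16.4 CPM, against 507, 427, 608 and 577 CPM in ΔLGIIK9het25. Its log2 fold change was -5.31 (SE 0.211, edgeR adjusted p = 1.17e-08), and WT averaged 588 ± 103 CPM. NCU09360 had 0.4, 0.514, 0 and 0.0808 CPM in Δdim-5, against 22.4, 26.8, 20.8 and 22.3 CPM in ΔLGIIK9het25. Its groups did not come near each other, and its log2 fold change was -6.74 (SE 0.508, edgeR adjusted p = 1.34e-06). The 1 gene of the 12 with a symbol was gh61-6, of a family of lytic polysaccharide monooxygenases that attack cellulose. It had 0.2, 0.294, 0.636 and 0.202 CPM in Δdim-5, against 15.5, 12.8, 8.81 and 10.2 CPM in ΔLGIIK9het25, with a log2 fold change of -5.07 (SE 0.459, edgeR adjusted p = 8.43e-06).

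NCU08969 behaved unlike the others with respect to WT. It had 0.1, 1.69, 0.9 and 0.162 CPM in Δdim-5, against 49.2, 45.7, 34.9 and 41 CPM in ΔLGIIK9het25, and WT ran from 0.362 to 1.03 CPM. The Δdim-5 libraries overlapped WT here and the ΔLGIIK9het25 libraries stood apart from both. The log2 fold change between the mutants was -5.90 (SE 0.577, edgeR adjusted p = 1.72e-05). The 6 other falls, NCU10009, NCU09994, NCU03816, NCU07355, NCU02858 and NCU02433, had log2 fold changes of -5.99 to -5.04. In 9 of the 12 falls the WT range met that of ΔLGIIK9het25 and not that of Δdim-5, and in NCU08969 the reverse held. In NCU08696 and NCU09994 it met neither, with WT at 32.7 to 34.6 CPM for NCU09994, just under the ΔLGIIK9het25 range. Here too the share over all genes tested was not counted.

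**Figure D2:**
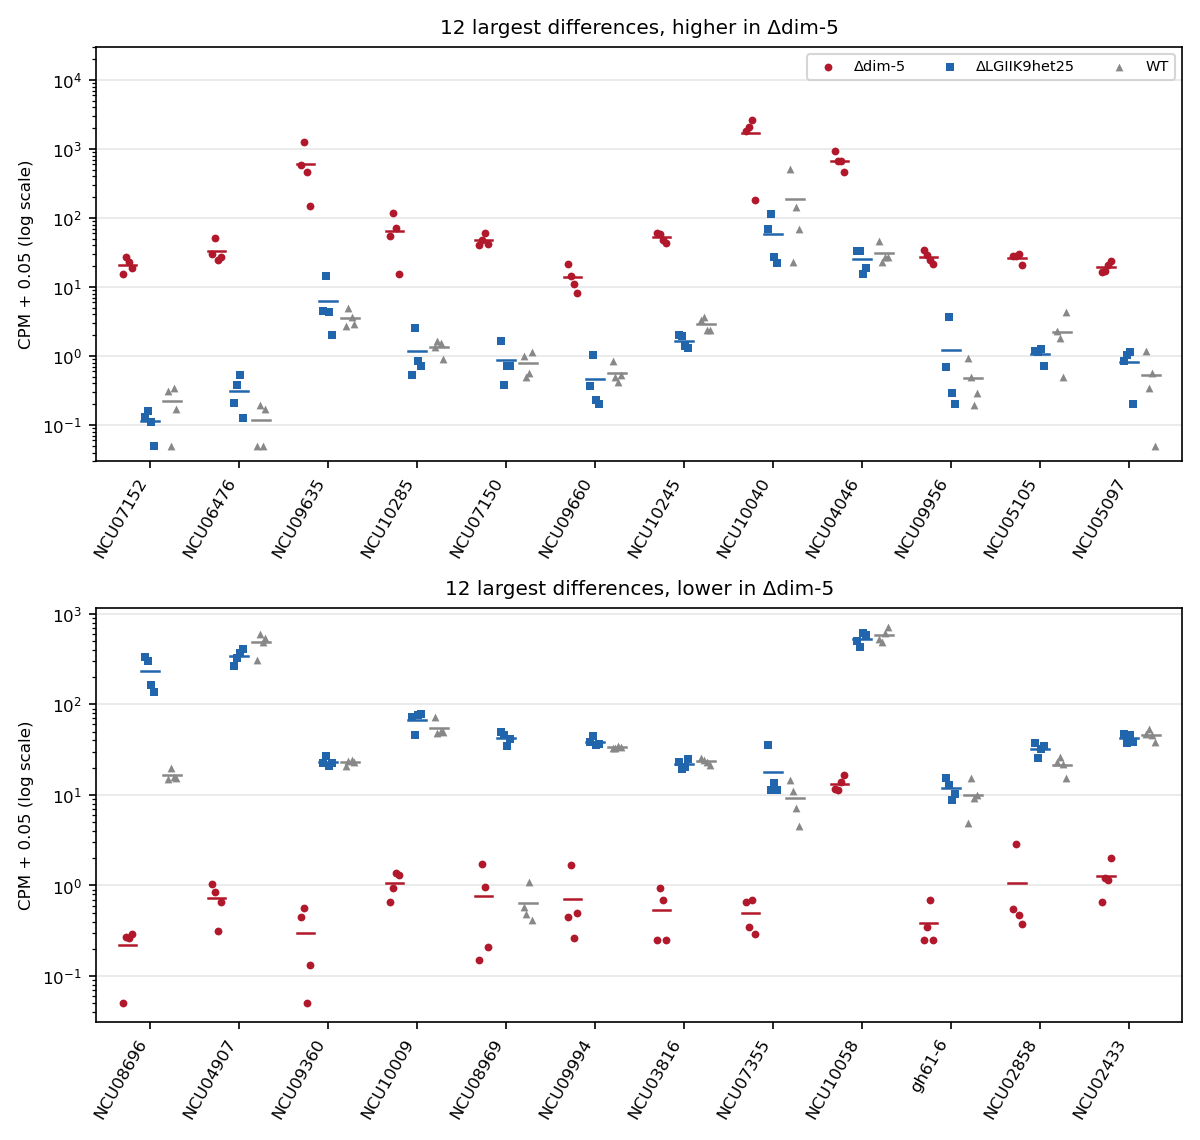
Levels per library (CPM + 0.05, log axis) of the 12 genes with the largest rises (top) and the 12 with the largest falls (bottom), with Δdim-5 as red circles, ΔLGIIK9het25 as blue squares and WT as grey triangles, and a bar at each mean. WT lies beside ΔLGIIK9het25 in most genes, while in NCU08969 it lies beside Δdim-5 at 0.362 to 1.03 CPM.

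Differences against WT share their libraries with this comparison and with each other, and are given side by side only. In the same fit 16.5% of the genes tested were called in Δdim-5 over WT and 4.32% in ΔLGIIK9het25 over WT. The log2 fold changes of NCU08696 were -6.36 in Δdim-5 over WT (edgeR adjusted p = 6.14e-07) and 3.83 in ΔLGIIK9het25 over WT (edgeR adjusted p = 1.87e-05). Those of NCU08969 were 0.17 in Δdim-5 over WT (edgeR adjusted p = 0.896) and 6.07 in ΔLGIIK9het25 over WT (edgeR adjusted p = 8.68e-05).

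The most abundant called genes without overlap were taken next. They were ranked by level and not by fold change, so smaller differences than in the genes above follow from the ranking. NCU00399 had 7744, 4167, 5682 and 4387 CPM in Δdim-5, against 2037, 1992, 1535 and 1409 CPM in ΔLGIIK9het25, with a log2 fold change of 1.66 (SE 0.253, edgeR adjusted p = 0.000634). Its Δdim-5 libraries were spread widely and all lay above those of ΔLGIIK9het25. NCU00811 averaged 4392 ± 447 CPM in Δdim-5 and 2055 ± 576 CPM in ΔLGIIK9het25, with a log2 fold change of 1.10 (SD, n = 4 each, edgeR adjusted p = 0.00979). NCU03600 averaged 3955 ± 473 CPM in Δdim-5 and 1655 ± 234 CPM in ΔLGIIK9het25, and NCU09175 averaged 3369 ± 295 CPM in Δdim-5 and 1901 ± 452 CPM in ΔLGIIK9het25. Both were called higher. NCU08720 averaged 3135 ± 626 CPM in Δdim-5 and 1578 ± 534 CPM in ΔLGIIK9het25, and its call (edgeR adjusted p = 0.0374) was lost in 9 of 21 alternative settings.

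On the lower side, NCU00265 had 77, 206, 220 and 130 CPM in Δdim-5, against 2007, 372, 1591 and 1190 CPM in ΔLGIIK9het25. Replicate 2 was the lowest ΔLGIIK9het25 library and still lay above all of Δdim-5. The log2 fold change of NCU00265 was -3.03 (SE 0.527, edgeR adjusted p = 0.00158). NCU09995 averaged 571 ± 34.1 CPM in Δdim-5 and 882 ± 101 CPM in ΔLGIIK9het25, and was called lower. NCU05259 averaged 1365 ± 243 CPM in Δdim-5 and 2181 ± 394 CPM in ΔLGIIK9het25, and its call (edgeR adjusted p = 0.022) was lost in 3 of 21 alternative settings. The 3 further abundant genes that were lower, am, gln-1 and hH1, are described with their gene lists.

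Transcripts that were present in one mutant and all but missing from the other were sought next, as genes with at most 3 reads over the 4 libraries of one strain and at least 5 reads in each library of the other. Δdim-5 lacked 9 such genes and ΔLGIIK9het25 lacked 6. NCU17277 had 0 reads in Δdim-5, against 125 in ΔLGIIK9het25 and 129 in WT. Counted against the floor of 3 reads over the strain, it was at least 54.8-fold lower in Δdim-5. WT was not on the side of ΔLGIIK9het25 in all of these genes. NCU06480 had 1 read in Δdim-5, against 206 in ΔLGIIK9het25 and 19 in WT (pooled ratio of ΔLGIIK9het25 over Δdim-5 271, 95% counting interval 48.1 to 10757), and NCU16632 had 1 read in Δdim-5, against 105 in ΔLGIIK9het25 and 2 in WT (pooled ratio 138, interval 24.3 to 5508). The other genes missing from Δdim-5 besides dim-5 were NCU08383, NCU09981, NCU08654, NCU00976 and NCU16633, with 2 or 3 reads in Δdim-5 against 51 or more in ΔLGIIK9het25. WT had 44 reads of NCU00976 and 0 to 4 reads of the other 4. NCU09981 and NCU16633 were not among the called genes.

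Of the 6 genes missing from ΔLGIIK9het25, none had 5 reads or more in each WT library. The clearest besides NCU07152 was NCU07770, with 605 reads in Δdim-5, 1 in ΔLGIIK9het25 and 0 in WT. It stood at 8.2, 12.1, 8.21 and 8.21 CPM in Δdim-5, and its pooled ratio of Δdim-5 over ΔLGIIK9het25 was 460 (95% counting interval 82.2 to 18191). NCU04882, NCU08614, NCU07615 and NCU16707 had 27 to 73 reads in Δdim-5 against 1 to 3 in ΔLGIIK9het25, too few to be tested.

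Gene groups were compared through 23 lists with 300 tested members in all. Of these, 20 were higher and 24 lower in Δdim-5, a share of 14.7% called beside 16.7% of all genes tested, and their median log2 fold change was -0.03. Most lists held at most 1 called gene. The lists with 3 or more were the deacetylases and sirtuins, DNA repair, the mating genes, the cellulose and glycoside hydrolase genes, and nitrogen metabolism.

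**Figure D3:**
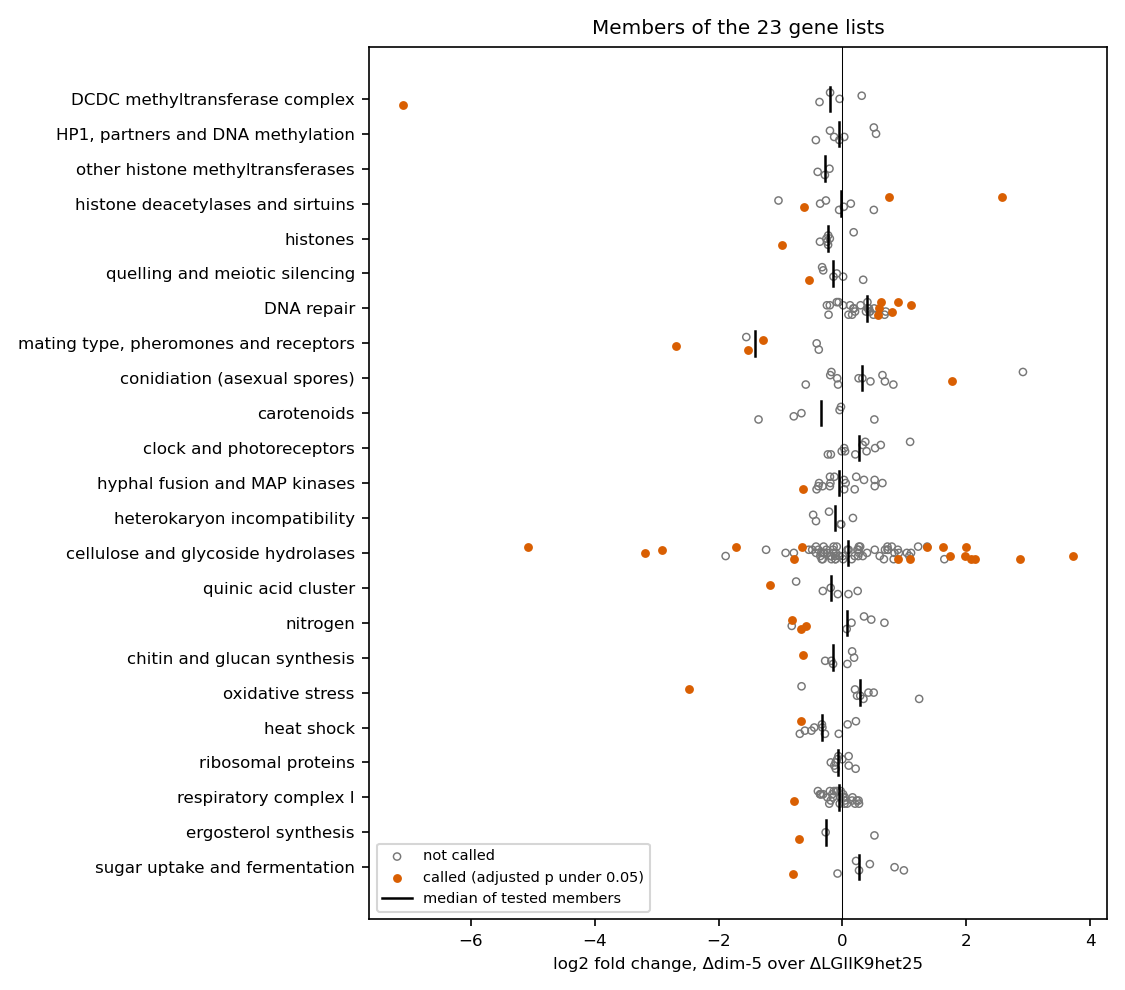
Log2 fold change of Δdim-5 over ΔLGIIK9het25 for each tested member of the 23 gene lists, 1 row per list, with called genes as filled orange points, others as open circles and the median of each list as a black bar. The DNA repair points lie mostly right of 0 with a median of 0.40, and all 6 points of the mating list lie left of 0.

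Genes that write, read and erase silent chromatin were taken list by list. None of the 7 genes for HP1, its partners and DNA methylation was called by edgeR. Of these, 3 had an unadjusted p under 0.05, DESeq2 called 2 and limma-voom called 0. The HP1 gene hpo had a log2 fold change of -0.05 and the DNA methyltransferase gene dim-2 one of 0.03. Of the other histone methyltransferase genes set-1, set-2 and set-7, edgeR, DESeq2 and limma-voom called 0, and 0 had an unadjusted p under 0.05.

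Among 10 tested deacetylase genes, 2 sirtuin genes rose and 1 fell, a share of 30.0% called beside 16.7% of all genes tested. Sirtuins are NAD-dependent deacetylases. nst-7 had 62.4, 69.1, 77.8 and 58.6 CPM in Δdim-5, against 11.8, 13.8, 10.2 and 9.18 CPM in ΔLGIIK9het25, and WT ran from 2.05 to 3.77 CPM. The 3 strains thus stood apart without overlap, with ΔLGIIK9het25 between Δdim-5 and WT. The log2 fold change of nst-7 between the mutants was 2.58 (SE 0.192, edgeR adjusted p = 1.25e-06). It was 4.48 in Δdim-5 over WT (edgeR adjusted p = 5.35e-08) and 1.90 in ΔLGIIK9het25 over WT (edgeR adjusted p = 0.00017).

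nst-1 had 80, 112, 60.9 and 63.2 CPM in Δdim-5, against 51.6, 48.3, 42.6 and 45.4 CPM in ΔLGIIK9het25, with a log2 fold change of 0.75 (SE 0.209, edgeR adjusted p = 0.0265). Its call was lost in 5 of 21 alternative settings. nst-3 averaged 23.3 ± 1.86 CPM in Δdim-5 and 35.8 ± 3.83 CPM in ΔLGIIK9het25, a log2 fold change of -0.61 (SE 0.145, edgeR adjusted p = 0.0116). The deacetylase genes hda-1 to hda-4 and the sirtuin genes nst-2, nst-4 and nst-6 were not called, and nst-5 had 0 reads in every library.

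The linker histone gene hH1 was the 1 called gene of 8 histone genes. It had 505, 401, 546 and 484 CPM in Δdim-5, against 974, 928, 918 and 987 CPM in ΔLGIIK9het25, and WT ran from 707 to 816 CPM. The WT libraries lay between the mutants without touching either. The log2 fold change of hH1 was -0.98 (SE 0.126, edgeR adjusted p = 0.000194), and the median over the 8 genes was -0.24. Of 7 tested genes of quelling and meiotic silencing, qde-1, the RNA-dependent RNA polymerase of quelling, was called. It averaged 22.3 ± 1.33 CPM in Δdim-5 and 32.6 ± 3.92 CPM in ΔLGIIK9het25, a log2 fold change of -0.55 (SE 0.131, edgeR adjusted p = 0.0125).

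Of 29 tested DNA repair genes, 6 (20.7%) rose in Δdim-5 and 0 fell, beside 8.83% higher and 7.92% lower over all genes tested. Matching by synonym placed qde-2 and qde-3 of the quelling list among the 29 too, and neither was called. A log2 fold change above 0 was found for 24 of the 29, called or not, beside 4376 of all 8496 genes, and the median was 0.40 against 0.02 over all genes. mus-42 had 14.9, 16.4, 15.3 and 13.6 CPM in Δdim-5, against 5.96, 8.72, 5.94 and 7.45 CPM in ΔLGIIK9het25, with a log2 fold change of 1.10 (SE 0.214, edgeR adjusted p = 0.00333). mus-23, whose product is the homologue of the break-processing nuclease MRE11, had 21, 14.1, 26.9 and 19.8 CPM in Δdim-5, against 11.6, 7.94, 12.7 and 11.5 CPM in ΔLGIIK9het25. mus-51, for the Ku70 homologue of end joining, had 48.3, 41.2, 70.7 and 54.5 CPM in Δdim-5, against 31.7, 27, 32.1 and 32.6 CPM in ΔLGIIK9het25. No Δdim-5 library of these 3 genes fell into the ΔLGIIK9het25 range. The log2 fold changes were 0.90 for mus-23 (SE 0.225, edgeR adjusted p = 0.0157) and 0.80 for mus-51 (SE 0.196, edgeR adjusted p = 0.0141).

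Other called repair genes had smaller differences. mus-25, for the RAD54 homologue, averaged 12.7 ± 1.77 CPM in Δdim-5 and 8.26 ± 1.26 CPM in ΔLGIIK9het25, and its call (edgeR adjusted p = 0.0425) was lost in 15 of 21 alternative settings. mus-41 averaged 28.8 ± 5.54 CPM in Δdim-5 and 19.2 ± 1.62 CPM in ΔLGIIK9het25, and its call (edgeR adjusted p = 0.0278) was lost in 11. mus-52, for the Ku80 partner of the mus-51 product, had a log2 fold change of 0.44 and was not called (edgeR adjusted p = 0.0638). Scaling by library totals alone left 3 calls in this list and upper-quartile scaling left 4, all of them higher, with medians of 0.32 and 0.39.

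Of 6 tested mating genes, 3 were called, all lower in Δdim-5, beside 7.92% called lower over all genes tested. The median log2 fold change of the 6 was -1.40. matA-1, the mating type regulator of A strains, had 5.4, 3.67, 3.28 and 10.1 CPM in Δdim-5, against 14.7, 17.1, 20.4 and 12.7 CPM in ΔLGIIK9het25, and 1.14 to 5.52 CPM in WT. The mutants did not overlap, and the Δdim-5 libraries overlapped WT. The log2 fold change of matA-1 was -1.52 (SE 0.444, edgeR adjusted p = 0.0332), and its call was lost in 9 of 21 alternative settings. The neighbouring genes matA-2 and matA-3 were too sparse to test, with 6 and 14 reads in Δdim-5, against 47 and 51 in ΔLGIIK9het25 and 2 and 8 in WT. The Δdim-5 strain, labelled "mat x", thus held reads of all 3 genes of the A idiomorph.

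A pheromone precursor gene and a receptor gene were the other called genes. mfa-1, the precursor of a lipopeptide pheromone, had 3.8, 3.74, 2.91 and 4.45 CPM in Δdim-5, against 16, 27.6, 24.4 and 27.8 CPM in ΔLGIIK9het25, and 1.76 to 8.18 CPM in WT. pre-1, a pheromone receptor, had 4.7, 6.46, 4.4 and 3.52 CPM in Δdim-5, against 13.8, 12, 10.3 and 10.2 CPM in ΔLGIIK9het25, and 3.07 to 3.83 CPM in WT. In both genes the ΔLGIIK9het25 libraries stood alone above the other strains. The log2 fold changes between the mutants were -2.68 for mfa-1 (SE 0.382, edgeR adjusted p = 0.000393) and -1.28 for pre-1 (SE 0.23, edgeR adjusted p = 0.00195). In ΔLGIIK9het25 over WT they were 2.41 for mfa-1 (edgeR adjusted p = 0.00295) and 1.76 for pre-1 (edgeR adjusted p = 0.00104). In Δdim-5 over WT they were -0.27 for mfa-1 (edgeR adjusted p = 0.679) and 0.47 for pre-1 (edgeR adjusted p = 0.2). pre-2, the second receptor gene, had a log2 fold change of -1.55 between the mutants, the pheromone gene ccg-4 one of -0.42 and fmf-1 one of -0.38, and none of them was called.

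Markers of sexual development are given beside these genes. The 8 markers, which include the 3 mating type genes, together summed to 198 to 344 CPM in Δdim-5, 248 to 553 CPM in ΔLGIIK9het25 and 277 to 319 CPM in WT, and none was at 0 reads in a strain. asd-1 averaged 85.6 ± 15.7 CPM in Δdim-5 and 211 ± 129 CPM in ΔLGIIK9het25 (log2 fold change -1.30, edgeR adjusted p = 0.0171). fsd-1 went the opposite way, with 73.7 ± 39.6 CPM in Δdim-5 and 19.8 ± 3.76 CPM in ΔLGIIK9het25 (log2 fold change 1.89, edgeR adjusted p = 0.00116). Their part in the mating gene differences was not tested.

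**Figure D4:**
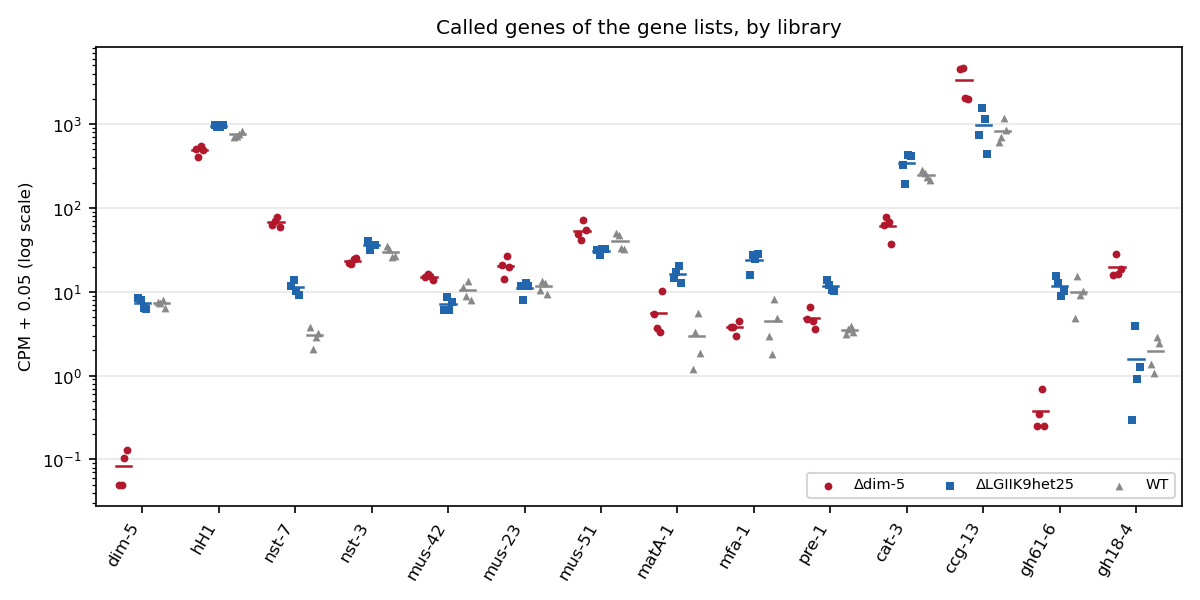
Levels per library (CPM + 0.05, log axis) of 14 called genes of the lists, with Δdim-5 as red circles, ΔLGIIK9het25 as blue squares and WT as grey triangles, and a bar at each mean. nst-7 steps down over the 3 strains from left to right, while mfa-1 and pre-1 are high in ΔLGIIK9het25 alone.

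Genes for cellulose use and glycoside hydrolases of any family, not only those that act on cell walls, moved in both directions. Of 80 tested genes for cellulose use and glycoside hydrolases, 11 rose and 6 fell in Δdim-5, a share of 21.2% beside 16.7% of all genes, with a median log2 fold change of 0.09. gh18-4, of the chitinase family, had 15.7, 27.8, 16.3 and 18.4 CPM in Δdim-5, against 0.242, 3.86, 0.857 and 1.2 CPM in ΔLGIIK9het25. The groups lay apart, with replicate 2 the highest library of each, and the log2 fold change was 3.73 (SE 0.59, edgeR adjusted p = 0.000828). The cellulase genes gh7-1 and gh7-2 rose by 2.00 and 2.08 on the log2 scale, the xylanase gene gh11-2 by 1.73, and the cellodextrin transporter gene cdt-2 by 1.62. gh7-2 averaged 9.3 ± 1.57 CPM in Δdim-5 and 2.21 ± 0.683 CPM in ΔLGIIK9het25.

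The other higher genes of this list were gh13-3, neg-1, gh76-5, gh13-6, gh3-1 and gh61-11. gh13-3, of the alpha-amylase family, averaged 23.6 ± 3.71 CPM in Δdim-5 and 5.35 ± 1.88 CPM in ΔLGIIK9het25. gh76-5 averaged 88.6 ± 22 CPM in Δdim-5 and 34.4 ± 8.11 CPM in ΔLGIIK9het25. gh61-11 was close to absent in ΔLGIIK9het25, at 1.47 ± 0.36 CPM in Δdim-5 and 0.181 ± 0.18 CPM in ΔLGIIK9het25, and lost its call (edgeR adjusted p = 0.016) in 2 of 20 alternative settings.

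Of the 6 lower genes, gh61-6 has been described above. gh13-2 had 0.4, 0.954, 0.477 and 0.283 CPM in Δdim-5, against 3.87, 5.52, 5.2 and 4.66 CPM in ΔLGIIK9het25, and WT averaged 0.781 ± 0.417 CPM. gh18-8 averaged 1.53 ± 0.872 CPM in Δdim-5 and 11.2 ± 5.65 CPM in ΔLGIIK9het25, and WT averaged 1.8 ± 1.94 CPM. The Δdim-5 libraries of both genes overlapped WT, and ΔLGIIK9het25 lay above them. The log2 fold changes between the mutants were -3.19 for gh13-2 (SE 0.456, edgeR adjusted p = 0.000396) and -2.90 for gh18-8 (SE 0.662, edgeR adjusted p = 0.00975). The call of gh18-8 was lost in 1 of 20 alternative settings. gh31-3, gh6-3 and gh47-6 were the remaining lower genes, with log2 fold changes of -1.73, -0.78 and -0.65.

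In nitrogen metabolism, 3 of 9 tested genes were called, all lower in Δdim-5, beside 7.92% called lower over all genes tested. The median log2 fold change of the 9 was 0.07, and 5 of them lay above 0. am, the NADP-specific glutamate dehydrogenase, had 695, 727, 831 and 894 CPM in Δdim-5, against 1171, 1092, 1482 and 1777 CPM in ΔLGIIK9het25, with a log2 fold change of -0.81 (SE 0.166, edgeR adjusted p = 0.00493). gln-1, a glutamine synthetase gene, had 714, 525, 544 and 769 CPM in Δdim-5, against 926, 884, 986 and 1046 CPM in ΔLGIIK9het25, with a log2 fold change of -0.59 (SE 0.149, edgeR adjusted p = 0.0165). The libraries of both genes were apart. nit-2, the GATA factor that switches on nitrogen genes, averaged 115 ± 21.1 CPM in Δdim-5 and 182 ± 31.9 CPM in ΔLGIIK9het25 (log2 fold change -0.67, edgeR adjusted p = 0.0207). The call of gln-1 was lost in 1 and that of nit-2 in 4 of 21 alternative settings.

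Stress genes gave 1 large difference. cat-3, a catalase gene, had 63.3, 78.5, 67 and 37.2 CPM in Δdim-5, against 329, 192, 433 and 413 CPM in ΔLGIIK9het25, and WT averaged 249 ± 30.3 CPM. The highest Δdim-5 library lay well under the lowest ΔLGIIK9het25 library, and the log2 fold change was -2.47 (SE 0.272, edgeR adjusted p = 4.54e-05). The catalase gene cat-2 averaged 237 ± 38.6 CPM in Δdim-5 and 101 ± 52.3 CPM in ΔLGIIK9het25 and was not called (log2 fold change 1.24, edgeR adjusted p = 0.0529). The remaining 7 tested genes of oxidative stress were not called. Of 11 heat shock genes, the small heat shock gene hsp30 was called, with a log2 fold change of -0.67 (edgeR adjusted p = 0.0371) that lost its call in 10 of 21 alternative settings.

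Of 13 conidiation genes, 1 was called, ccg-13, a clock-controlled gene. It had 4556, 4681, 2063 and 1967 CPM in Δdim-5, against 733, 1560, 1155 and 435 CPM in ΔLGIIK9het25, with a log2 fold change of 1.77 (SE 0.402, edgeR adjusted p = 0.00936). The hydrophobin gene eas, which coats aerial spores, varied widely among replicates, with 452, 14357, 232 and 950 CPM in Δdim-5, against 252, 781, 1056 and 35 CPM in ΔLGIIK9het25. Replicate 2 of Δdim-5 stood alone and the strains overlapped, so that a log2 fold change of 2.91 had an SE of 1.31 and was not called (edgeR adjusted p = 0.154). The 7 conidial markers together summed to 891 to 16747 CPM in Δdim-5, 624 to 3919 CPM in ΔLGIIK9het25 and 796 to 5082 CPM in WT, with none at 0 reads in a strain. In Δdim-5 replicate 2, eas alone gave 14357 CPM of this sum. Of the 7 conidial markers, 4 had a log2 fold change above 0 and 0 were called. The hyphal markers hex-1 and so together summed to 3264 to 4734 CPM in Δdim-5, 3704 to 8147 CPM in ΔLGIIK9het25 and 4770 to 6894 CPM in WT. Nearly all of the sum in the mutants was hex-1, on which this check of the mycelium label therefore rests. The part of spore-forming cells in the other differences was not tested.

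The other lists gave single or no calls. so, a hyphal fusion gene, was the 1 called gene of 18 in hyphal fusion and MAP kinase signalling, at 77.7 ± 9.12 CPM in Δdim-5 and 121 ± 14.7 CPM in ΔLGIIK9het25 (log2 fold change -0.64, edgeR adjusted p = 0.0085). nuo21.3a was the 1 called gene of 30 in respiratory complex I, at 152 ± 40 CPM in Δdim-5 and 262 ± 19.1 CPM in ΔLGIIK9het25 (log2 fold change -0.79, edgeR adjusted p = 0.0074). acu-5, for acetyl-CoA synthetase, was the 1 of 7 in sugar uptake and fermentation, at 348 ± 33.7 CPM in Δdim-5 and 604 ± 155 CPM in ΔLGIIK9het25 (edgeR adjusted p = 0.0255, lost in 4 of 21 alternative settings).

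The last single calls were all lower in Δdim-5 and close to the threshold. They were chs-3 of 7 chitin and glucan synthesis genes (edgeR adjusted p = 0.0417, lost in 9 of 21 alternative settings), erg-4 of 3 ergosterol genes (edgeR adjusted p = 0.0425, lost in 8 of 21) and the quinate dehydrogenase gene qa-3 of 7 genes of the quinic acid cluster (edgeR adjusted p = 0.0473, lost in 12 of 20). edgeR called 0 of 6 carotenoid genes and 0 of 10 ribosomal protein genes, and in both lists 0 had an unadjusted p under 0.05 and DESeq2 and limma-voom called 0. It called 0 of 12 clock and photoreceptor genes, where 2 had an unadjusted p under 0.05 and DESeq2 and limma-voom called 0. It called 0 of 6 heterokaryon incompatibility genes, where 1 had an unadjusted p under 0.05 and DESeq2 and limma-voom called 1 each.

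Called genes were also read in their order along the chromosomes of the RefSeq assembly NC12. There were 34 runs of at least 4 neighbouring tested genes that were all called in the same direction, 16 of them higher with 77 genes and 18 lower with 93 genes. Together they held 11.9% of all called genes, and 16 runs had 5 genes or more. The longest higher run had 8 genes, NCU10285 to NCU10572, and began at the first listed gene of its chromosome. It held NCU10285 and NCU09635 from the largest rises, and its log2 fold changes ran from 2.65 to 6.65. NCU09637 averaged 314 ± 216 CPM in Δdim-5 and 25.5 ± 14.1 CPM in ΔLGIIK9het25, and NCU10572, at the far end, averaged 594 ± 292 CPM in Δdim-5 and 84.2 ± 56 CPM in ΔLGIIK9het25.

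A run of 7 higher genes, NCU17053 to NCU07147, held NCU07152 and NCU07150, with log2 fold changes of 2.43 to 8.27. Its first gene, NCU17053, averaged 44.4 ± 6.6 CPM in Δdim-5, 7.83 ± 3.99 CPM in ΔLGIIK9het25 and 1.77 ± 0.635 CPM in WT. The other 6 genes of this run stood below 3 CPM on average in ΔLGIIK9het25. Another run of 7, NCU09182 to NCU09188, had a median log2 fold change of 2.41. Within it NCU09185 averaged 80.9 ± 16.2 CPM in Δdim-5 and 11.3 ± 3.59 CPM in ΔLGIIK9het25.

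Runs differed in where WT lay. In the lower run of 6 genes from NCU16741 to NCU04910, which held NCU04907, the median log2 fold change was -4.02 in Δdim-5 over WT and -0.72 in ΔLGIIK9het25 over WT. NCU04910 averaged 5.19 ± 3.11 CPM in Δdim-5, 103 ± 38.9 CPM in ΔLGIIK9het25 and 288 ± 100 CPM in WT. In the higher run of 5 from NCU08573 to NCU08569 the medians were 4.93 in Δdim-5 over WT and 2.44 in ΔLGIIK9het25 over WT. NCU08570 of this run averaged 12.8 ± 2.62 CPM in Δdim-5, 5.43 ± 0.697 CPM in ΔLGIIK9het25 and 0.136 ± 0.0955 CPM in WT. The calls of NCU08573 and NCU08569, at its ends, were each lost in 8 alternative settings. In the lower run of 4 from NCU02864 to NCU02858 the medians were 0.79 in Δdim-5 over WT and 3.91 in ΔLGIIK9het25 over WT, with 3 of the 4 genes below 3 CPM in all strains on average.

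Longer stretches with lower genes appeared when neighbouring runs were joined across gaps of at most 4 tested genes, a rule chosen after the values were seen. Such stretches are built from genes already called lower, so their counts and medians follow from the rule and are a description only. Over all genes tested, 7.92% were called lower. Between NCU06019 and NCU02431, 25 genes are listed, 21 were tested and 17 were lower in Δdim-5, with a median log2 fold change of -1.83 over the 21. NCU02438 had 99.8, 163, 153 and 130 CPM in Δdim-5, against 453, 374, 546 and 572 CPM in ΔLGIIK9het25, which left a wide gap between the strains. NCU02458 had 5.2, 4.99, 4.55 and 4.12 CPM in Δdim-5, against 39.3, 42.8, 48.9 and 52.9 CPM in ΔLGIIK9het25. Its log2 fold change was -3.29 (SE 0.157, edgeR adjusted p = 2.52e-08).

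The 4 genes in this stretch that were not called were NCU02457, NCU11258 and the core histone genes hH2A and hH2B, which stand next to each other. hH2A averaged 1281 CPM in Δdim-5 and 1520 CPM in ΔLGIIK9het25. The quinic acid cluster and gh18-7 precede the stretch, and qa-3 was the 1 called gene there. Over the 21 tested genes the median log2 fold change was -1.63 in Δdim-5 over WT and -0.03 in ΔLGIIK9het25 over WT.

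A second such stretch ran from hsp30 to NCU09894, with 18 genes listed, 15 tested and 13 lower in Δdim-5, and held NCU09360, NCU09994 and NCU10058 of the largest falls. NCU09999 had 1.3, 6.09, 6.04 and 5.7 CPM in Δdim-5, against 115, 86.1, 119 and 126 CPM in ΔLGIIK9het25. Replicate 1 of Δdim-5 was the lowest of its group, and the log2 fold change was -4.51 (SE 0.349, edgeR adjusted p = 1.81e-06). NCU09998 and NCU09996 in the middle of the stretch were not called. The ends of the stretch depend on the gap allowed. After it, NCU09896 was called higher (log2 fold change 0.56), and the lower run of 6 genes from NCU09900 to gh13-2 followed. Before it, NCU09372 and NCU09368 were called lower (log2 fold changes -3.53 and -2.76), while the other genes shown there were not called. The median over the 15 genes was -1.20 between the mutants, -1.59 in Δdim-5 over WT and -0.08 in ΔLGIIK9het25 over WT.

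**Figure D5:**
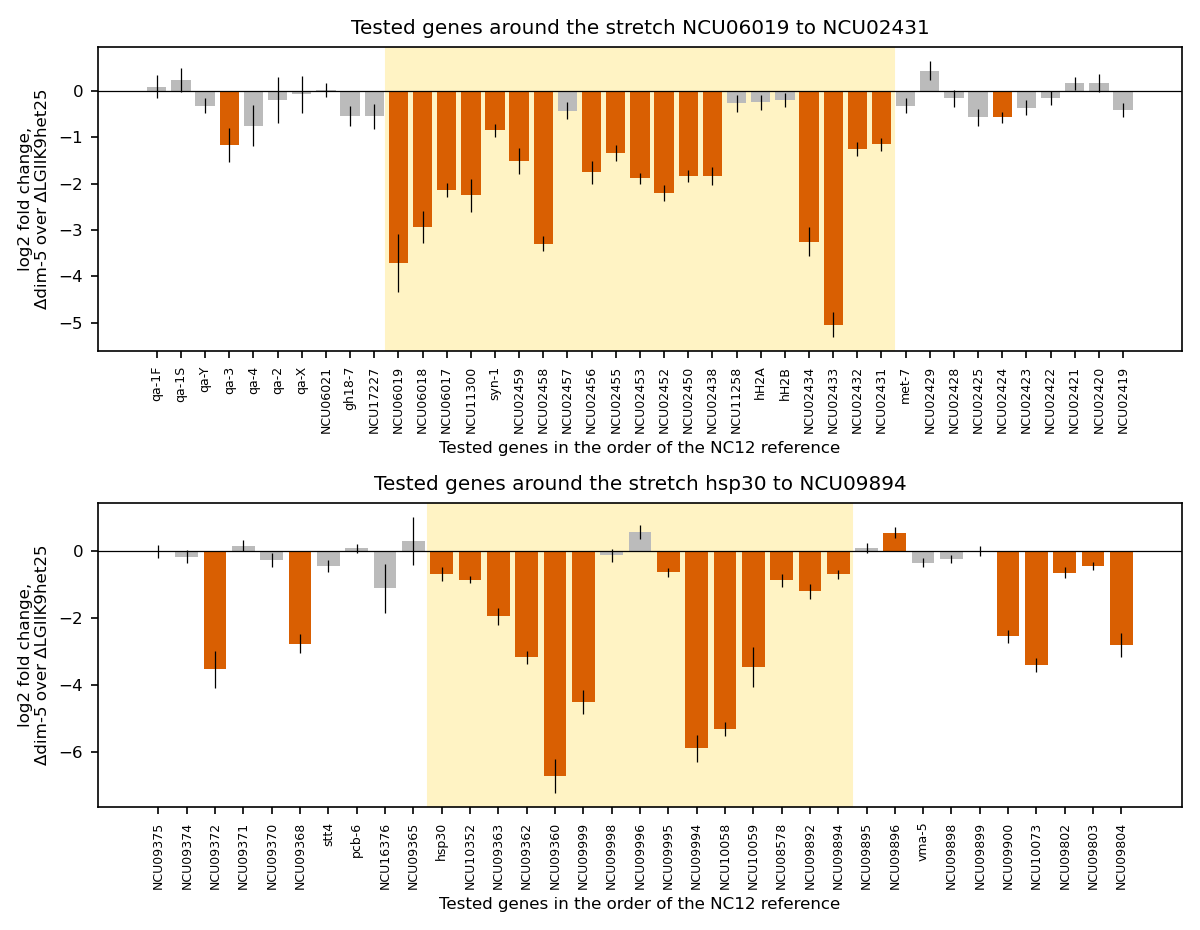
Log2 fold change of Δdim-5 over ΔLGIIK9het25 of tested genes in reference order around the stretches from NCU06019 to NCU02431 (top) and hsp30 to NCU09894 (bottom), with called genes orange, others grey, and lines of 1 SE. In the shaded stretches, which were built by joining runs of lower calls, 17 of 21 and 13 of 15 tested genes were called, all lower. hH2A and hH2B stand as short grey bars in the top stretch.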

How the data were processed

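Polyadenylated RNA of 12 libraries was sequenced, 4 for each of 3 strains, grouped by the strain and numbered by the replicate in their titles. The names of the deposited tables carry other replicate numbers for some libraries, and share 1 number between the mutants, that of replicate 2 in the titles of both. For each library the authors deposited raw counts of reads by gene. HISAT2, HTSeq and DESeq2 are named in the submitters' processing notes, while the genome build, the annotation and all versions were not given in the sources used here. Per the labels, the library kit was directional, while the names of the deposited count tables say that counting ignored strand, so overlapping and antisense genes are uncertain, as are near-identical copies. The 5 closing entries of each table name no gene and were left out. In Δdim-5, reads without a gene took 3.62% to 7.29% of the entries, ambiguous reads 2.61% to 3.00%, unaligned reads 6.25% to 19.6% and reads with several alignments 0.105% to 0.251%. In ΔLGIIK9het25, the ranges were 5.17% to 31.8% without a gene, 2.36% to 2.91% ambiguous, 6.81% to 10.7% unaligned and 0.0964% to 0.234% with several alignments. The fifth entry, for low quality, was 0 in all.

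Genes were kept by filterByExpr and scaled by TMM, and all 12 libraries entered 1 edgeR quasi-likelihood fit with a mean per strain and 9 residual degrees of freedom (R 4.3.3, edgeR 4.0.16). The contrast was Δdim-5 over ΔLGIIK9het25, with Benjamini-Hochberg adjustment over all 8496 genes tested. CPM used TMM-scaled totals, and each SE came from the log2 fold change divided by the root of F. The procedure was tested on simulated data. Library measures were compared by exact permutation tests. Counting intervals and the floor of 3 reads cover counting error only. RefSeq assembly NC12 gave symbols and neighbour order, matching 9729 of 9730 identifiers, of which 1118 had a symbol. Of the symbols sought, 18 of the lists and the markers lah and spa-1 were not found.

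Named genes were the 12 largest rises and falls among called genes without overlap and averaging at least 5 CPM in the 8 mutant libraries, the 6 most abundant such genes in each direction, dim-5, the mating type genes, called members of the lists (the 5 largest where more were called), genes missing from a strain, and the ends and the largest gene of runs of at least 5 genes. Other genes, among them further glycoside hydrolase genes, members of runs, eas, cat-2, asd-1 and fsd-1, were named after their values were seen. Members and lists were chosen with earlier results of these data known. Alternatives were other scalings and filters, DESeq2 1.42.0, limma-voom (limma 3.58.1), the mutants alone, the replicate number as a block, thinning, a covariate, a stricter threshold, and leaving out libraries or the 20 genes with the most counts.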

Additional observations from a re-analysis of the deposited data

Results flagged for a closer look

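Within groups of 4 libraries, single libraries stood far from their fellows in 2 of 14 groups of library measures and in 21 groups over 19 genes, of 216 groups of named genes, on the scale of log2(CPM + 0.5). Chance gives about 1 in 20, or 0.7 and 10.8 groups. Genes share the same libraries, so their groups are not independent, and the excess over these numbers was not tested. In 4 of the 21 the group held a single read, which sets its library apart by construction, and without groups of at most 1 read there were 17 of 211, with 10.55 from chance. Reads with several alignments made up 0.251% of Δdim-5 replicate 2, against 0.105% to 0.125% in its fellows, and 0.234% of ΔLGIIK9het25 replicate 2, against 0.0964% to 0.119%.

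Among the largest rises and falls, NCU10040 had 181 CPM in Δdim-5 replicate 4, against 1839 to 2590 in its fellows, and NCU02858 had 2.79 CPM in Δdim-5 replicate 2, against 0.323 to 0.5. NCU08696 had 0 CPM in Δdim-5 replicate 1, against 0.212 to 0.243, levels that rest on only a few reads per library. NCU07355 had 35.5 CPM in ΔLGIIK9het25 replicate 1, against 11.3 to 13.6, and NCU10009 had 46.3 CPM in ΔLGIIK9het25 replicate 2, against 72.5 to 77.4.

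Among genes of the lists, hsp30 had 15.4 CPM in Δdim-5 replicate 1, against 22.6 to 23.3 in its fellows. In ΔLGIIK9het25, matA-2 had 0.221 CPM in replicate 2, against 0.967 to 1.16, and mus-51 had 27 CPM there, against 31.7 to 32.6. erg-4 had 125 CPM in the same library, against 237 to 256, and qde-1 had 26.7 CPM in replicate 3, against 33.9 to 35.

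Among genes near absence in one strain, NCU06480 and NCU16632 each had 0.0734 CPM, a single read, in Δdim-5 replicate 2 and 0 in its fellows. NCU07770 had 12.1 CPM in Δdim-5 replicate 2, against 8.2 to 8.21, and 0.0612 CPM in ΔLGIIK9het25 replicate 3, against 0. NCU04882 had 0.0612 CPM in the same ΔLGIIK9het25 library, against 0.

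Among genes of runs, NCU09894 had 60.6 CPM and NCU09999 had 1.3 CPM in Δdim-5 replicate 1, against 80 to 81 and 5.7 to 6.09 in its fellows. NCU04910 had 9.85 CPM in Δdim-5 replicate 3, against 3.4 to 3.96, and 161 CPM in ΔLGIIK9het25 replicate 2, against 79.5 to 89.1. NCU07816 had 10.5 CPM in ΔLGIIK9het25 replicate 4, against 14.5 to 15.2, and NCU08569 had 4.19 CPM in ΔLGIIK9het25 replicate 1, against 1.65 to 1.88.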

How the results depend on the processing

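Of the 100 named genes that were called, 80 kept their call in every alternative run for them, 20 lost it in at least 1, and 0 changed direction. The count of 1423 calls became 637 at an adjusted p under 0.01, with 319 higher and 318 lower. Leaving out 1 library in turn gave 939 to 1358 calls, 439 to 736 higher and 500 to 629 lower, and leaving out both replicate 2 libraries, chosen after the data were seen, gave 1140. DESeq2 called 1847 genes (945 higher, 902 lower) and limma-voom 1481. Same-numbered libraries of the mutants deviated from their group means with correlations of 0.0711 to 0.0873, and not every library correlated best with its own number, so the numbers were not taken as pairs. The 1 number that the names of the deposited tables share between the mutants falls on the replicate 2 libraries, at 0.0873. No block by those numbers was possible, and the fit with the replicate number of the titles as a block called 1467 genes (771 higher, 696 lower). The other settings gave 1152 calls among genes averaging 5 CPM or more, 1256 with all libraries thinned to 7164944 counts, 1290 from the mutants alone, 1349 with reads outside genes as a covariate, 1374 with library totals, 1392 without a filter, 1394 with upper-quartile factors, 1430 without the 20 genes with the most counts and 1432 with DESeq2's size factors. Library totals shifted the median log2 fold change of all genes to -0.07, against 0.02. The 34 runs became 27 where untested genes end a run, and 22 where each gene had to differ at least 2-fold. The cause of these changes was not tested. Depth limits genes with few reads: 4 of the 6 genes missing from ΔLGIIK9het25 could not be tested. NCU09981 and NCU16633, missing from Δdim-5, were not called.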
